A study of Mus musculus with 8 samples.

Results

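The regions described here are sites on the mouse genome that C/EBPα occupied in liver after each of 2 perturbations. They were called in no control liver. Occupancy had been mapped by ChIP-seq, which sequences the DNA pulled down with an antibody, in 8 libraries, and the authors' lists of 200 bp peaks were joined into sites where peaks overlapped by 1 bp or more. A site belonged to the set when both Trib1_LSKO and both AAV_Cebpa lists held a peak there and none of the 2 Trib1_WT and 2 AAV_Null lists did. This gave 1832 members out of 113353 sites, or 1.62% of all sites. The members were thus chosen from the calls in all 8 lists, so that their presence in the treated livers and absence from the controls is the rule itself and not a result.

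All 4 groups had 2 libraries each, made from liver of mice 8 to 10 weeks old that had been fasted for 4 hours. Trib1_LSKO livers came from mice with a floxed Trib1 gene given 1.5e11 gc (genome copies) of an adeno-associated virus (AAV) vector coding for Cre recombinase. AAV_Cebpa livers came from C57B/6 wild-type mice given 1e12 gc of a vector coding for C/EBPα. Trib1_WT livers came from floxed mice given 1.5e11 gc of an empty vector, and AAV_Null livers from C57B/6 wild-type mice given 1e12 gc of an empty vector, so that every mouse carried AAV. The sources used here name neither the promoters of the vectors nor the animals behind the libraries of a group, so that the spread within a group may be technical. The samples were whole liver, and the lists have no RNA or protein measurement with which to check the cell type, the loss of Trib1 or the amount of C/EBPα.

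C/EBPα is a basic leucine zipper transcription factor that binds DNA as a dimer and is known in hepatocytes for driving genes of gluconeogenesis, lipid metabolism and plasma protein synthesis. Trib1 encodes Tribbles-1, a pseudokinase that has no known catalytic role of its own and acts as an adaptor bringing C/EBPα to the ubiquitin ligase COP1, which marks it for degradation. Losing Trib1 and delivering extra Cebpa are therefore both known ways to raise C/EBPα, one by sparing the endogenous protein and the other by adding a gene for it.

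Sites were counted against the calls of each experiment. In Trib1_LSKO, 3.15% of all sites were gained (3569, called in both Trib1_LSKO lists and neither Trib1_WT list), and in AAV_Cebpa 19.5% were gained (22124, called in both AAV_Cebpa lists and neither AAV_Null list). The members made up 51.3% of the first and 8.28% of the second. The AAV_Cebpa lists were long and deep, with 59564 and 80394 peaks, against 50075 and 53072 in Trib1_LSKO, 53327 and 54691 in Trib1_WT, and 46348 and 49052 in AAV_Null. Relative to the shallowest library (AAV_Null replicate 1), depth was 1.85 and 2.27 in AAV_Cebpa, 1.18 and 1.28 in Trib1_LSKO, 1.14 and 1.93 in Trib1_WT, and 1.17 in AAV_Null replicate 2. With every list shortened to the length of the shortest, 12783 sites were gained in AAV_Cebpa and 3648 in Trib1_LSKO, and with tags thinned to the shallowest library 19954 and 3742. The thinning covered listed peaks only, and no peaks were called anew. With AAV_Cebpa replicate 1 left out the sites gained in AAV_Cebpa numbered 40426. Sites gained in Trib1_LSKO numbered 7621 when its replicate 1 was left out and 7394 when its replicate 2 was. Leaving out replicate 1 of Trib1_WT gave 5436 and leaving out replicate 2 gave 5707. The shares of 51.3% and 8.28% hold only for the lists as deposited.

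Members sat in the lower part of the Trib1_LSKO lists and in the middle to upper part of the AAV_Cebpa lists. Strength was read as the percentile of the authors' signal within each list, where 100 is the strongest peak. Over the 1832 members the median percentile was 34.5 (interquartile range 18.2 to 51.6) in Trib1_LSKO replicate 1 and 30.5 (15.9 to 47.7) in replicate 2. In AAV_Cebpa replicate 1 it was 57.0 (33.3 to 76.2) and in replicate 2 it was 68.1 (47.2 to 83.9). Sites called in all 8 lists, of which there were 24318, had medians of 72.3 and 73.6 in Trib1_LSKO and 73.4 and 78.4 in AAV_Cebpa. The members therefore lay below the constitutive sites in all 4 treated lists, and by a wider margin in Trib1_LSKO. Against sites without a control peak they lay higher. All such sites, members included, had medians of 18.2 and 15.9 in Trib1_LSKO and 28.9 and 31.1 in AAV_Cebpa. Sites gained in AAV_Cebpa with 1 Trib1_LSKO list and no control list had 15.7 and 13.4, and 41.3 and 55.6. The rule asks for a call in all 4 treated lists, which these classes do not. In sequence tags, recovered from the steps of the signal values, the median member held 23 in either Trib1_LSKO library, 52 in AAV_Cebpa replicate 1 and 96 in AAV_Cebpa replicate 2. The weakest member held 9, 9, 12 and 14 tags in the same libraries, next to 8, 8, 11 and 12 for the weakest peak of each list.

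**Figure D1:**
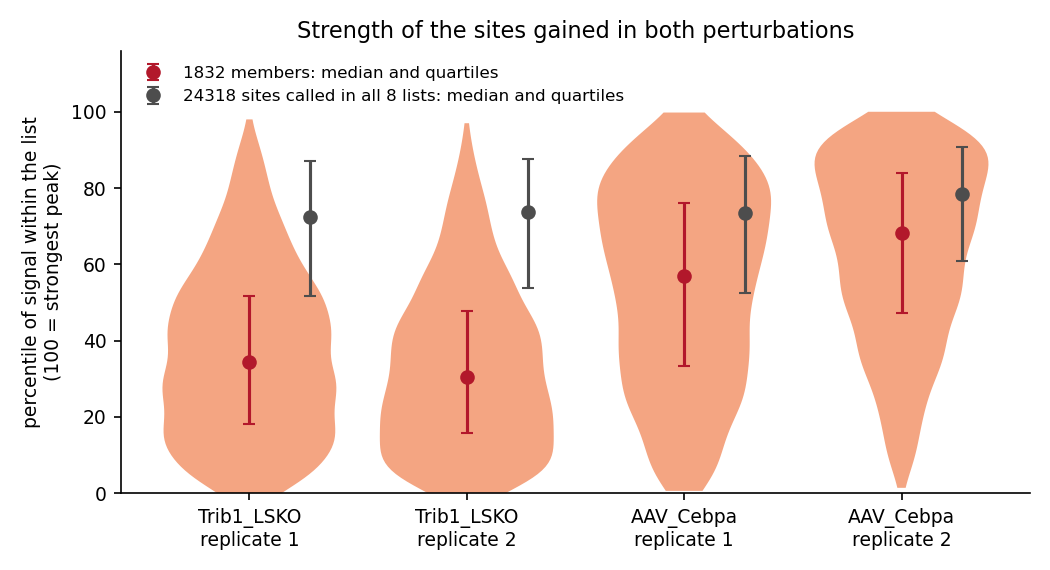
Percentile of the signal within each treated list (vertical axis, 100 is the strongest peak) for the 1832 members (shape: distribution; red point and bar: median and quartiles) and for the 24318 sites called in all 8 lists (grey). Member medians are 34.5 and 30.5 in the Trib1_LSKO lists and 57.0 and 68.1 in the AAV_Cebpa lists, each below the grey median of its list.

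Few members were among the strongest peaks of a Trib1_LSKO liver. In Trib1_LSKO, 14 members (0.76%) reached the strongest 10% of replicate 1 and 10 members (0.55%) that of replicate 2. In AAV_Cebpa, the strongest 10% held 119 members (6.5%) in replicate 1 and 258 (14.1%) in replicate 2. Only 5 members were in the strongest 10% of all 4 lists, and 303 (16.5%, 95% Wilson interval 14.9% to 18.3%) in the strongest 50% of all 4. At the other end, 462 members (25.2%) fell in the weakest 10% of at least 1 of the 4 lists. List by list, the share was 13.6% and 14.3% in Trib1_LSKO and 5.4% and 1.64% in AAV_Cebpa. The shares over all 4 lists were not counted for other kinds of site.

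The order of the members was shared between replicates and looser between perturbations. Spearman's rho across the 1832 members was 0.77 between the Trib1_LSKO replicates and 0.95 between the AAV_Cebpa replicates. Between a Trib1_LSKO and an AAV_Cebpa list it was 0.47 to 0.53. For the 24318 sites called in all 8 lists the same values were 0.93, 0.95 and 0.79 to 0.85. These coefficients are descriptions across sites that share 4 libraries, and the narrower strength range and lower tag numbers of the members in Trib1_LSKO accompany the lower values. The percentile was higher in Trib1_LSKO than in AAV_Cebpa for 220 members (12.0%), with a median difference of -22.7 percentile points (interquartile range -39.3 to -8.4), against -1.8 (-9.4 to 3.5) for sites called in all 8 lists. Lists of different length were ranked here, so these differences describe the place of a site within each list and not a change in occupancy.

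The strongest members were named by their mean percentile over the 4 treated lists, and positions are given in build mm9; the genes near them were not analysed here. The strongest of all, on chromosome 5 from 92050320 to 92050538, had signals of 97.1 and 86.4 in the Trib1_LSKO lists and 94.4 and 105.3 in the AAV_Cebpa lists. It ranked 965 and 2225 in Trib1_LSKO, and 354 and 277 in AAV_Cebpa, with no peak in any control list. The next, on chromosome 1 from 63841012 to 63841219, had signals of 97.1 and 90.5 in Trib1_LSKO and 83.3 and 97.9 in AAV_Cebpa. Both sites stood near the top of every treated list, at percentiles of 95.8 to 99.7. The chromosome 1 site was 8.3 kb from the nearest site of a control list, 664.6 kb from the nearest site called in all 8 lists and 994.9 kb from the nearest other member, and the chromosome 5 site had another member 3.3 kb away.

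A site on chromosome 15 from 59538695 to 59538934 was the third, with signals of 86.2 and 78.0 in Trib1_LSKO and 103.1 and 120.0 in AAV_Cebpa. In AAV_Cebpa replicate 2 it ranked 20 of 80394 peaks. The fourth, also on chromosome 15, from 59613931 to 59614142, had signals of 72.7 and 76.2 in Trib1_LSKO and 69.3 and 75.4 in AAV_Cebpa. These neighbours lie in one stretch that also holds one of the strongest sites just outside the rule, and the stretch was singled out after its values were seen. From 59523893 to 59614142 (90.2 kb) it held 25 sites, of which 4 were members, 7 were called in all 8 lists and 2 were called in all 4 treated lists and 1 control list. No site there was lost in either experiment, that is, called in both control lists and neither treated list of it. The other 2 members of the stretch, starting at 59530359 and 59554658, had mean percentiles of 86.5 and 84.9. The 4 members of this stretch were at a percentile of 74.99 or higher in every treated list, where the median member was at 30.5 to 68.1.

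Places 5 to 10 were spread over chromosomes 9, 18, 7, 12, 7 and 19. The site on chromosome 9 from 116100035 to 116100249 had percentiles of 89.8 and 91.9 in Trib1_LSKO and 97.7 and 97.8 in AAV_Cebpa. On chromosome 18, the site from 55013244 to 55013457 had 92.2 and 90.7 in Trib1_LSKO and 97.6 and 96.1 in AAV_Cebpa. It lay 0.4 kb from a site called in all 8 lists, and whether it is separate from that site was not tested. The site on chromosome 7 from 141223530 to 141223770 had 89.8 and 88.0 in Trib1_LSKO and 98.8 and 99.8 in AAV_Cebpa, and the one from 107017925 to 107018175 had 92.6 and 85.1, against 97.0 and 98.5. Chromosome 12, 119958702 to 119958964, had 92.4 and 83.4 in Trib1_LSKO and 99.7 and 99.9 in AAV_Cebpa. Chromosome 19, 21105588 to 21105804, had 90.1 and 89.8 in Trib1_LSKO and 94.7 and 98.6 in AAV_Cebpa. In each of these 6 sites both AAV_Cebpa percentiles lay above both Trib1_LSKO percentiles.

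Some members were strong in one perturbation and marginal in the other. The largest excess in AAV_Cebpa was on chromosome 10 from 42689219 to 42689448, with 16 and 12 tags in Trib1_LSKO (percentiles of 18.2 and 4.9) and 195 and 299 tags in AAV_Cebpa (98.1 and 99.4). Next came chromosome 11, 53903779 to 53903998, with 11 and 12 tags in Trib1_LSKO and 118 and 187 in AAV_Cebpa. A site on chromosome 9 from 44356573 to 44356817 had 14 and 12 tags in Trib1_LSKO and 130 and 229 in AAV_Cebpa. At such sites the call in Trib1_LSKO rested on 16 or fewer tags. Of the same kind were chromosome 13, 110026422 to 110026659, at percentiles of 9.5 and 7.7 in Trib1_LSKO and 90.9 and 92.0 in AAV_Cebpa, and chromosome 11, 32386688 to 32386921, at 15.7 and 2.3, against 87.7 and 95.7.

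The opposite case was milder. On chromosome 19 from 26146570 to 26146825, percentiles were 68.6 and 37.5 in Trib1_LSKO and 2.2 and 24.7 in AAV_Cebpa, with 49 and 27 tags against 13 and 32. On chromosome 15 from 23266651 to 23266871 they were 58.0 and 39.1 in Trib1_LSKO and 2.2 and 24.7 in AAV_Cebpa. A site on chromosome 5 from 119580617 to 119580850 had 73.7 and 62.6 in Trib1_LSKO and 30.4 and 38.5 in AAV_Cebpa. The mean percentile in Trib1_LSKO minus that in AAV_Cebpa thus reached 39.6 points at most, and -87.2 points at the other end. The remaining pair were chromosome 2, 109312656 to 109312904, which had another member 0.8 kb away and percentiles of 55.6 and 58.1 in Trib1_LSKO and 28.9 and 20.3 in AAV_Cebpa, and chromosome 19, 57829595 to 57829858, with 40.4 and 47.7 in Trib1_LSKO and 2.2 and 25.9 in AAV_Cebpa.

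The rule's borders ran through a graded field of sites. Without any control peak there were 37714 sites, of which 1832 were called in 4 treated lists, 2340 in 3, 14243 in 2 and 19299 in 1. Of the 2340 sites missed by a single treated list, 813 lacked Trib1_LSKO replicate 1, 1192 Trib1_LSKO replicate 2, 285 AAV_Cebpa replicate 1 and 50 AAV_Cebpa replicate 2. Another 1604 sites were called in all 4 treated lists and in 1 control list, which was Trib1_WT replicate 1 in 716 cases, Trib1_WT replicate 2 in 500, AAV_Null replicate 1 in 228 and AAV_Null replicate 2 in 160. In that control list their median percentile was 17.8, 13.5, 18.4 and 16.6, so most of these control peaks were weak. Most near misses therefore came from the Trib1 experiment on either side of the rule.

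Just inside the rule, the weakest entry of a member was 9 tags in Trib1_LSKO replicate 1, at chromosome 2 from 19273581 to 19273844 (10 tags in Trib1_LSKO replicate 2, and 18 and 24 in AAV_Cebpa) and at chromosome 4 from 96859990 to 96860275 (24 tags in Trib1_LSKO replicate 2, and 27 and 53 in AAV_Cebpa). A member on chromosome 1 from 16448187 to 16448482 had 12 and 9 tags in Trib1_LSKO and 12 and 17 in AAV_Cebpa. The 5 strongest sites just outside had mean percentiles of 95.3 to 97.1 over the treated lists that held them, within the 93.3 to 98.2 of the 10 strongest members. Chromosome 12, 72937028 to 72937258, had percentiles of 95.6 in Trib1_LSKO replicate 1 and 97.6 and 98.1 in AAV_Cebpa and no peak in Trib1_LSKO replicate 2 or any control, with a site held by a control list 0.4 kb away. Chromosome 15, 59523893 to 59524115, had 94.9 and 91.3 in Trib1_LSKO, 97.2 and 98.6 in AAV_Cebpa, and 7.3 in Trib1_WT replicate 1 from 11 tags. A similar site on chromosome 7 from 138407762 to 138408010 was at 11.0 in Trib1_WT replicate 1, from 12 tags, and at 92.0 to 98.4 in the treated lists. In the other 2 sites the single control peak was not weak. Chromosome 1, 155540772 to 155541002, was at 77.8 in Trib1_WT replicate 1 and 89.3 to 99.3 in the treated lists, and chromosome 7, 116745226 to 116745459, was at 94.1 in Trib1_WT replicate 2 and 94.4 to 96.7 in the treated lists, with a site held by a control list 0.4 kb away.

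Members were more frequent among the stronger sites gained in AAV_Cebpa. The 22124 sites gained in AAV_Cebpa were put in 10 bins of about equal size by their mean percentile in the AAV_Cebpa lists. In the weakest bin, 60 of 2227 sites (2.69%, 95% Wilson interval 2.10% to 3.45%) were members, and in the strongest, with mean percentiles from 78.7 up, 490 of 2213 were (22.1%, 20.5% to 23.9%). The share was higher in each bin than in the weaker one before it except in the third, with 3.79% against 4.00% in the one before. The mirror pattern, called in both Trib1_WT lists and neither Trib1_LSKO list, was held by 29 sites of the weakest bin (1.30%) and 6 sites of the strongest (0.27%). In every bin members outnumbered the mirror pattern, by 60 to 29 in the weakest bin and by 490 to 6 in the strongest. Over all 113353 sites, 3569 (3.15%) were gained in Trib1_LSKO and 3661 (3.23%) held the mirror pattern, so the weakest bin's 2.69% lay below the share over all sites. Trib1_WT lists were longer than Trib1_LSKO lists. The bins hold sites absent from the AAV_Null lists, and both kinds of control liver had been given the empty vector. Absence from one control and absence from the other are therefore not independent. How far this choice shapes the excess of members over the mirror pattern was not tested. Any call at all in both Trib1_LSKO lists was found for 8.80% of the weakest bin and 56.9% of the strongest, against 6.83% and 23.3% for both Trib1_WT lists, so calls of either kind went up with strength. No test was made, since the bins are drawn from the same 8 lists as the rule.

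**Figure D2:**
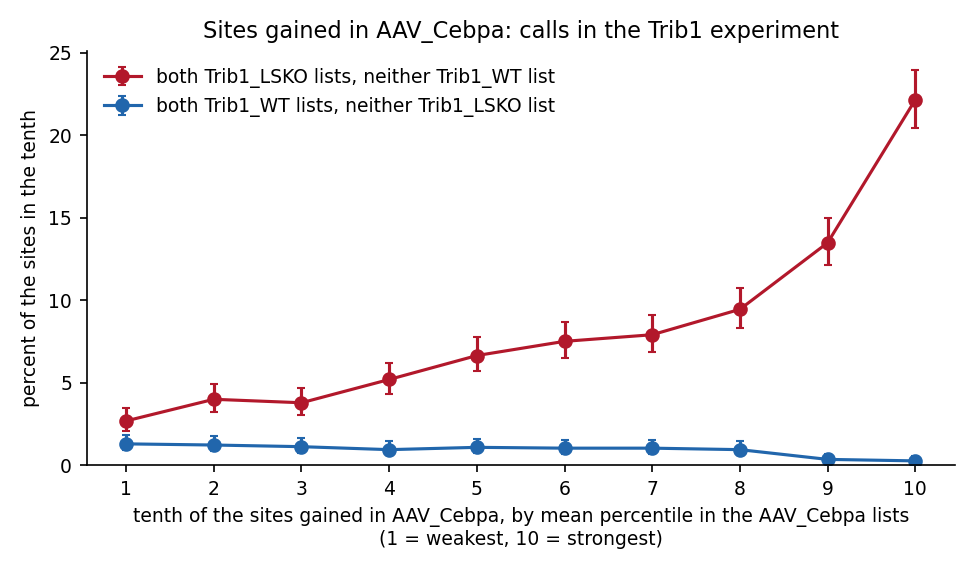
Percent of sites (vertical axis) in each of 10 bins of the 22124 sites gained in AAV_Cebpa, ordered by mean percentile in the AAV_Cebpa lists (horizontal axis), that were called in both Trib1_LSKO lists and neither Trib1_WT list (red, the members) or the reverse (blue), with 95% Wilson intervals over sites. The red share runs up to 22.1% in the strongest bin, where the blue share is 0.27%. All bins hold only sites absent from the AAV_Null lists, and the calls counted are those of the rule.

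Strength in Trib1_LSKO went with calls in AAV_Cebpa as well. Of 2643 sites gained in Trib1_LSKO and absent from both AAV_Null lists, the weakest of 5 bins by mean Trib1_LSKO percentile held 288 members in 536 sites (53.7%, 95% Wilson interval 49.5% to 57.9%), and the strongest held 445 in 528 (84.3%, 80.9% to 87.1%). The share with no peak in either AAV_Cebpa list was 8.14% in the strongest bin and 27.6% in the weakest. The share of members was higher in each bin than in the weaker one before it. The 2643 sites were chosen for absence from the AAV_Null lists, and the members among them by their calls in the AAV_Cebpa lists. Of all sites, AAV_Cebpa replicates 1 and 2 held 52.6% and 70.9%, and 19.5% were gained in AAV_Cebpa. The shares were not set against other sites of like strength, so whether the rise is particular to these sites was not tested.

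Calls were also read in libraries left out of a relaxed choice. The sites so chosen include all the members, whose calls in the left-out libraries the rule fixes, so the shares below describe the relaxed sets and support nothing about the members. Sites were chosen that were gained in AAV_Cebpa, present in 1 Trib1_LSKO list and absent from 1 Trib1_WT list, and the remaining library of each Trib1 group was then read. Over the 4 ways to do this, with 3311 to 4004 sites each, the left-out Trib1_LSKO library held 62.9% to 71.6% of them and the left-out Trib1_WT library 18.5% to 25.7%. Of all sites, the Trib1_LSKO lists held 44.2% and 46.8% and the Trib1_WT lists 47.1% and 48.3%. In the mirror choice, with sites present in 1 Trib1_WT list and absent from 1 Trib1_LSKO list, only 982 to 1196 sites were found. There the left-out Trib1_LSKO library held 36.8% to 39.7% and the left-out Trib1_WT library 34.0% to 43.8%. The shares of the 2 groups did not overlap in the first choice and did overlap in the mirror choice. The first choice holds all the members and the mirror choice holds none, so this contrast is partly fixed by the rule. All 4 ways use the same 4 libraries and are not independent, so no p is given, and 2 libraries against 2 cannot go below p = 0.333 in an exact two-sided permutation test.

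The same reading of the second experiment gave a wider gap. The sets chosen with 1 AAV_Cebpa list again include all the members, whose left-out calls the rule fixes. Among 2054 to 2390 sites gained in Trib1_LSKO, present in 1 AAV_Cebpa list and absent from 1 AAV_Null list, the left-out AAV_Cebpa library held 86.2% to 97.3% and the left-out AAV_Null library 8.37% to 11.4%. Of all sites, the AAV_Cebpa lists held 52.6% and 70.9% and the AAV_Null lists 40.9% and 43.3%. The mirror choice held 108 to 189 sites, of which the left-out AAV_Cebpa library had 14.8% to 49.5% and the left-out AAV_Null library 50.8% to 61.1%. The lower AAV_Cebpa shares were those of replicate 1, whose list is shorter. With a single library left out of the rule itself, the 3 other treated lists and the 4 controls chose 2645 sites of which Trib1_LSKO replicate 1 held 69.3% and 3024 of which Trib1_LSKO replicate 2 held 60.6%. AAV_Cebpa replicate 1 held 86.5% of 2117 such sites and AAV_Cebpa replicate 2 held 97.3% of 1882. Left out in turn, Trib1_WT replicates 1 and 2 held 28.1% and 21.4%, and AAV_Null replicates 1 and 2 held 11.1% and 8.03%, of sites called in 4 treated and none of the other 3 control lists. The treated shares have the 1832 members as their numerator, and the sites found in a left-out control library are by the rule no members. The order of these shares, AAV_Cebpa above Trib1_LSKO and Trib1_WT above AAV_Null, is also that of the shares of all sites that the libraries list. The same holds for the replicates of AAV_Cebpa. Other orders were reversed. In Trib1_LSKO, Trib1_WT and AAV_Null, replicate 1 held the larger share here and the smaller share of all sites. Trib1_LSKO lay above Trib1_WT here, but of all sites its lists held 44.2% and 46.8%, against 47.1% and 48.3%.

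**Figure D3:**
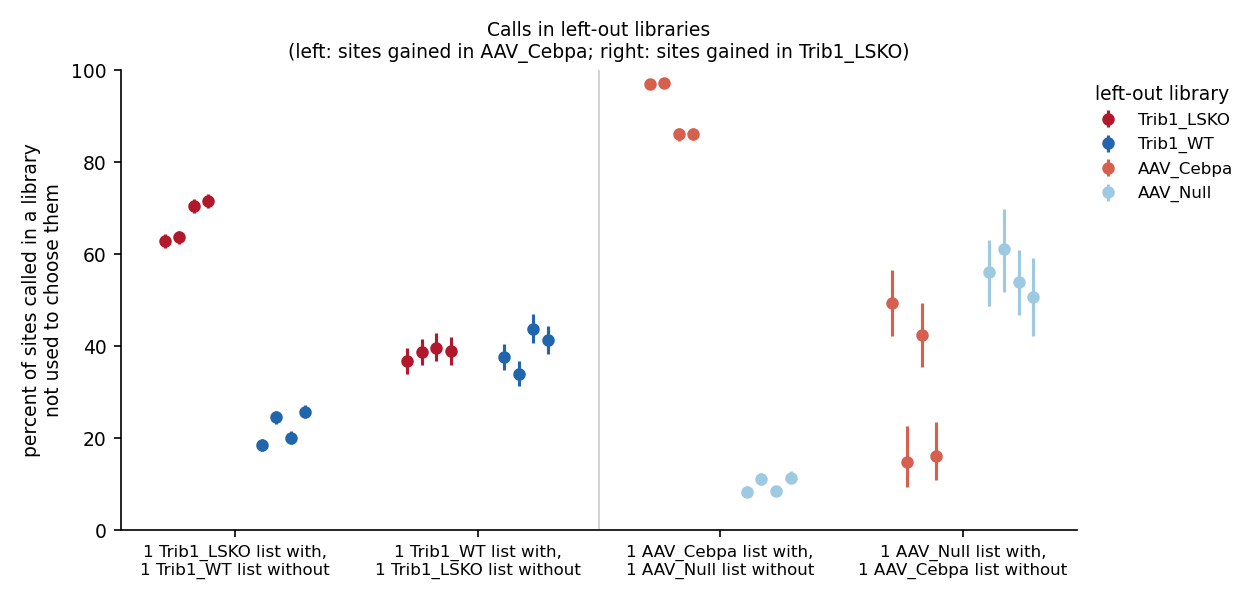
Percent of sites called (vertical axis) in a library that was not used to choose them, for 4 choices of sites (horizontal axis) in 4 ways each, with 95% Wilson intervals over sites. The left-out Trib1_LSKO libraries lie at 62.9% to 71.6% and the Trib1_WT libraries at 18.5% to 25.7% in the first choice, and the 2 groups overlap in the mirror choice beside it. Right of the line, the left-out AAV_Cebpa libraries lie at 86.2% to 97.3% and the AAV_Null libraries at 8.37% to 11.4%. The sets chosen with a treated list include all the members, whose left-out calls the rule fixes, and the mirror sets include none.

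Members lay nearer to each other than other sites lay to members. Of the 1832 members, 173 (9.44%, 95% Wilson interval 8.19% to 10.9%) had another member within 10 kb. Among the 12649 sites gained in AAV_Cebpa with no peak in any Trib1_LSKO or control list, 3.63% (3.32% to 3.97%) had a member that close, and among sites called in all 8 lists 4.28% (4.04% to 4.55%) did. The classes most like the members lay between, at 5.19% (4.30% to 6.25%) of 2005 sites gained in AAV_Cebpa with 1 Trib1_LSKO list and 5.97% (3.90% to 9.04%) of 335 sites gained in Trib1_LSKO with 1 AAV_Cebpa list. It was 6.51% (4.63% to 9.10%) of 476 sites gained in Trib1_LSKO with no AAV_Cebpa or control list. The intervals of the 335 and the 476 sites overlap that of the members. A site called in all 8 lists lay within 10 kb of 41.0% (38.8% to 43.3%) of the members, against 31.8% (31.0% to 32.6%) of those 12649 sites and 36.1% of the 89035 sites not called in all 8 lists. Among the like classes it was 38.2% (36.1% to 40.3%) of the 2005 sites and 37.0% (32.0% to 42.3%) of the 335, and these intervals overlap that of the members. For the 476 sites it was 31.9% (27.9% to 36.25%), with no overlap. Sites called in all 8 lists had another such site within 10 kb in 48.6% of cases. Within 1 kb, 95 members (5.19%) had a constitutive site, the same share as of the 89035 sites (5.19%). A control peak of any kind lay within 500 bp of 63 members (3.44%), and the median distance to the nearest site of any control list was 5.3 kb. Neighbouring sites are not independent of each other, and no test was made of these shares.

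**Figure D4:**
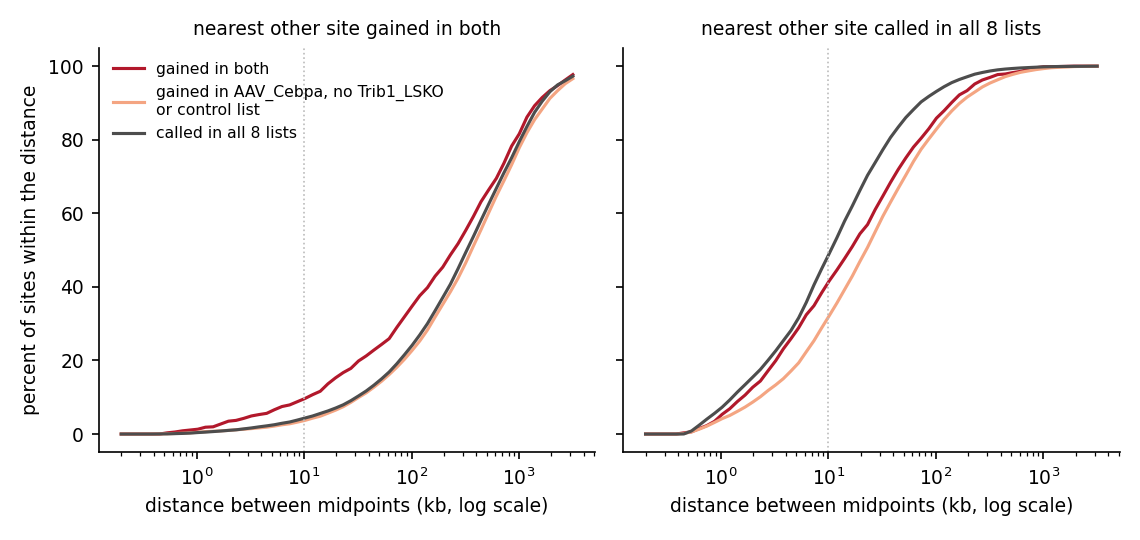
Cumulative percent of sites (vertical axis) by distance to the nearest other member (left) and to the nearest other site called in all 8 lists (right), in kb on a log scale; the dotted line marks 10 kb. Within 10 kb, 9.44% of the members have another member, against 3.63% of the sites gained in AAV_Cebpa with no Trib1_LSKO or control peak.

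The company of the members was examined in the 3679 other sites within 10 kb of one. Of these, 22.1% (95% Wilson interval 20.8% to 23.4%) were gained in AAV_Cebpa and 2.66% (2.19% to 3.24%) in Trib1_LSKO, against 18.1% and 1.52% of the 107842 sites farther away. Sites lost in Trib1_LSKO made up 2.45% (1.99% to 3.00%) near members and 3.31% (3.21% to 3.42%) elsewhere, and sites lost in AAV_Cebpa 5.0% (4.34% to 5.75%) and 5.43% (5.30% to 5.57%). Sites called in all 8 lists were 28.3% near members and 21.6% elsewhere. By these counts the surroundings of a member held larger shares of gained and constitutive sites, and a smaller share lost in Trib1_LSKO, than were found farther away. The neighbours of the classes most like the members were not counted. Whether these shares are particular to members was therefore not tested. The share lost in AAV_Cebpa was at the level elsewhere.

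Members also formed runs. With gaps of at most 50 kb, 441 members (24.1%) fell into 201 runs of 2 or more, and the other 1391 stood alone. A member lay within 50 kb of 13.8% of the 12649 sites gained in AAV_Cebpa with no Trib1_LSKO or control peak. The share was 14.5% of the sites called in all 8 lists and 12.5% of all sites that are no members. It was 17.36% (15.76% to 19.08%) of the 2005 sites gained in AAV_Cebpa with 1 Trib1_LSKO list. Of the 335 sites gained in Trib1_LSKO with 1 AAV_Cebpa list it was 18.81% (14.98% to 23.34%). Of the 476 sites gained in Trib1_LSKO with no AAV_Cebpa or control list it was 18.91% (15.64% to 22.67%). The intervals of the 335 and the 476 sites overlap that of the members (22.17% to 26.08%). The largest run, on chromosome 15 from 22964406 to 23035112, held 6 members in 70.7 kb. Its span contained 7 sites in all, every one of them gained in AAV_Cebpa and none called in any control list. A run on chromosome 11 from 105402184 to 105450112 had 5 members in 47.9 kb among 8 sites, of which 2 were called in all 8 lists. Its members were strong, with median percentiles of 55.6 and 58.1 in Trib1_LSKO and 81.7 and 87.5 in AAV_Cebpa.

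Of 5 runs with 4 members, one also lacked control peaks. On chromosome 16 from 56637164 to 56671283 (34.1 kb), 4 of 5 sites were members and none was called in a control list. Mixed runs were found on chromosome 4 from 105818377 to 105892580, where 14 sites included 8 gained in AAV_Cebpa, 2 called in all 8 lists and 1 lost in AAV_Cebpa, and on chromosome 7 from 28003470 to 28043579, where 10 sites included 6 gained and 1 lost in AAV_Cebpa. Gains and losses thus stood side by side in these 2 runs. The last 2 runs, on chromosome 7 from 80480817 to 80543485 and on chromosome 14 from 101917068 to 101974056, held 8 and 9 sites, with 5 and 6 gained in AAV_Cebpa and 1 called in all 8 lists in either.

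**Figure D5:**
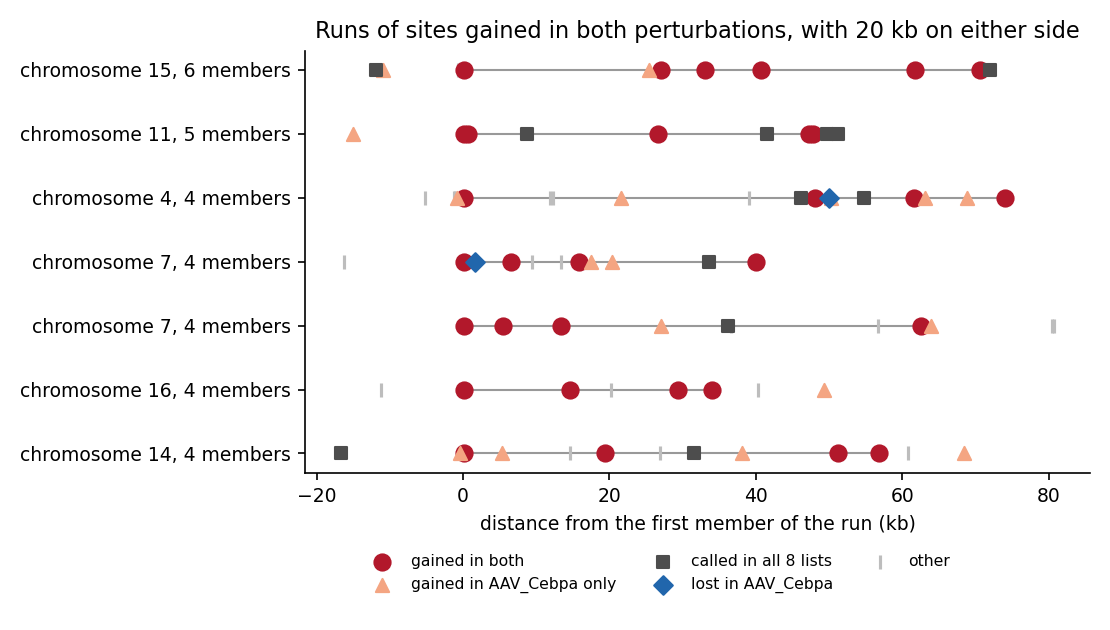
The 7 runs with most members, one per row, with sites drawn by distance from the first member of the run (horizontal axis, kb) and 20 kb shown on either side; symbols give the state of each site, and "other" marks sites in none of the named states. The run on chromosome 15 has 6 members and no site called in a control list within its span, and the runs on chromosome 4 and the upper one on chromosome 7 each hold a site lost in AAV_Cebpa.

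Members were spread over all autosomes and X. Chromosome 2 held most, 160 members (8.73%, 95% Wilson interval 7.53% to 10.1%), against 7.43% of all sites without a control peak and 6.81% of sites called in all 8 lists. Chromosome X held 36 members (1.97%, 1.42% to 2.71%), against 4.14% of all sites without a control peak and 2.07% of sites called in all 8 lists. Of the 12649 sites gained in AAV_Cebpa with no Trib1_LSKO or control peak, chromosome X held 4.25% (3.91% to 4.61%). The intervals count sites as if independent and were not used as a test.

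Peaks of the 4 treated libraries lay close in position at members, which the joining of overlapping 200 bp peaks partly fixes. Midpoints differed by a median of 16 bp between the Trib1_LSKO replicates, 13 bp between the AAV_Cebpa replicates and 15 bp between a Trib1_LSKO and an AAV_Cebpa library, and 92.7% of the last kind lay within 50 bp. At sites called in all 8 lists the same medians were 11, 10 and 11 bp. At members, the median of 15 bp between the 2 perturbations lay between the 13 bp of the AAV_Cebpa replicates and the 16 bp of the Trib1_LSKO replicates.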

How the data were processed

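Occupancy of C/EBPα was measured by ChIP-seq in 8 libraries, 2 per group. Per the submitters' processing notes, the authors used Bowtie, HOMER and the mouse build mm9. No source used here gives their versions, the peak threshold or the input. The authors deposited 1 list per library, each peak 200 bp wide with 1 signal value. Signals were whole multiples of 1 step per library (tolerance 0.051) for at least 99.92% of peaks. The inverse of the step gave the relative depth and each peak's tags. The absolute depth is unknown.

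All 446523 peaks were joined where they overlapped by 1 bp or more (Python 3.11.15, pandas 2.3.3), checked on made-up peaks with known sites. Signals were ranked only within a list. Intervals are 95% Wilson intervals from statsmodels 0.14.6 and cover counting of sites only. No single site was tested. The members, lists and alternatives were chosen with earlier results of these data known. Named were the 10 strongest members by mean percentile, the 5 with the largest difference between perturbations each way, the 3 weakest, the 5 strongest sites just outside the rule, and the 5 runs with most members (7 with ties). Genes, motifs and sequence need mm9 and were not used here.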

Additional observations from a re-analysis of the deposited data

How the results depend on the processing

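The number of members was 1820 to 1838 with other windows or a 100 bp overlap, 1535 with lists of equal length, 1796 on autosomes, 1769 with no control peak within 500 bp and 1326 with the strongest 50% of each list. It fell to 303 when presence needed the strongest 50% and absence the full list. The next settings were chosen after the data had been seen: a signal of at least 10 gave 1845 sites, and thinning tags to the shallowest library gave 1837. Thinning was a single random draw over peaks already listed, and no peaks were called anew. It cannot show which peaks equal sequencing depth would have given. A like number did not mean like sites. Only 1098 of the 1832 members were among the 1845, 296 among the 1326 and 1171 among the 1535 from lists of equal length, against 1723 after thinning. The 10 strongest members were kept in all of these settings but the 400 bp window and the 500 bp rule, which kept 9. Leaving out 1 library loosens the rule and gave 1881 to 3027 sites, the highest without Trib1_LSKO replicate 2. The mirror pattern, 207 sites, ranged from 14 to 207 over the settings with all libraries and from 237 to 733 with 1 library left out, below the number of members in each. Both were counted among sites absent from the AAV_Null lists, so this order supports nothing about the members. The share of members within 10 kb of another ran from 5.28% (of 303) to 12.0% (without Trib1_WT replicate 1), and the share on chromosome X from 0.33% (of 303) to 2.72% (without Trib1_LSKO replicate 1). Of 175 recomputed values, 131 stayed within a set limit of the main value and 44 moved beyond it. The limit was a factor of 1.5 for counts and the main interval for shares. For median percentiles it was the standard deviation between the replicates. A count within the limit may hold other sites, as the 1326 did. No paired analysis was possible because no test was made on these calls and the replicate numbers only name the samples. The weakest member calls rest on 9 tags.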
